A study of Mus musculus with 6 samples.

Results

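The SLC25 genes encode the mitochondrial carriers, and 40 of them were examined here among the 26214 genes listed in the count files of a rotenone experiment in mouse brown adipocytes. Of 47 listed symbols of the form Slc25a followed by a number, Slc25a4, Slc25a5 and Slc25a20 were left out by name, and a gene entered if its counts summed to at least 10 over the 3 DMSO libraries. That minimum removed 4 symbols. Sums, shares and rankings below cover these 40 carriers only, without the 3 left out by name. Just inside it stood Slc25a48 with 10 DMSO counts and Slc25a43 with 22, and just outside it Slc25a41 with 6 and Slc25a21 with 4. The rotenone counts took no part in the choice, but a carrier silent in DMSO could not enter, so the levels in DMSO are given as a description.

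SLC25 proteins share a fold of repeated membrane-spanning modules and exchange metabolites, nucleotides, cofactors and ions across the inner mitochondrial membrane, which is otherwise tight to them. They are made in the cytosol from nuclear genes and are threaded into the inner membrane by the TIM22 machinery. In brown fat the best known relative is the uncoupling protein UCP1, and SLC25A44 is known there for bringing branched-chain amino acids into mitochondria. Several carriers pass reducing equivalents or citrate between the matrix and the cytosol, and others supply the respiratory chain with phosphate, iron and cofactors.

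RNA-seq had been carried out on an immortalized line of mouse brown preadipocytes that had been differentiated with insulin, triiodothyronine, methylisobutylxanthine, dexamethasone and indomethacin. Rotenone, which blocks complex I of the respiratory chain, was given on day 7 at 100 nM for 16 h, DMSO alone serving as the control, and no other inhibitor or untreated group was analysed here. The labels give no strain, genotype or number of clones, and both groups share the line and the differentiation agents. Each group had 3 deposited files, but those of the rotenone group did not differ in a single count and were taken as 1 library, so 3 DMSO libraries were compared with 1 rotenone library.

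Total counts were 26085061 to 29194179 in the DMSO libraries and 21611589 in the rotenone library, where a count of 0 allows up to 0.148 CPM (counts scaled to a common library size after TMM normalization); such limits cover counting error only. Levels are in CPM, and changes are log2 fold changes of rotenone over DMSO with their standard errors (SE) from edgeR's quasi-likelihood test. "Past the threshold" means a Benjamini-Hochberg adjusted p under 0.05 over all 14709 genes tested. Because the rotenone group had 1 library, the test takes that library to vary like the DMSO libraries, whose biological coefficient of variation was 6.90%. A second reading assumed 20%. No label says that the replicates were separate cultures, so p-values reflect library-to-library spread that may be technical. With all genes split into 10 classes of transcript length, the median log2 fold change was 0.24 in the shortest class and -0.27 in the longest.

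Defining markers of the cells were checked beside the carriers. Ucp1 had 67.2 ± 10.9 CPM (SD, n = 3) under DMSO and 18.5 CPM with rotenone, and Adipoq, the fat cell hormone adiponectin, had 1163 ± 87.5 and 863 CPM. Both were lower past the threshold, as were Prdm16, Ebf2, Pparg, Cebpa, Plin1 and Lipe, while Elovl3, Cox7a1 and Lpl rose. Cidea, Ppargc1a, Fabp4 and Cd36 did not pass. Over all genes tested, 56.1% were called, 27.6% higher and 28.5% lower, and the counts of markers are to be read against those shares. Of 7 brown adipocyte markers tested 2 rose and 3 fell. Of 8 general adipocyte markers 1 rose and 5 fell, and of 11 markers of preadipocytes or fibroblasts 7 rose and 1 fell. The summed level of the latter 11 was 1438 to 1615 CPM in DMSO and 4376 CPM with rotenone. Most of that rise lay in Col1a1 (883 CPM in DMSO and 2121 with rotenone), Acta2 (155 and 852), Tagln (122 and 654) and Col3a1 (229 and 477). Pdgfra was the marker that fell, from 19.5 to 9.07 CPM, and Cd34, Ly6a and Dcn did not pass. Macrophage markers summed to 2.67 to 3.59 and 15.7 CPM, with Adgre1 and Ptprc at 0 in every library. Cd68 alone carried that difference, with 2.98 and 15.5 CPM, while Csf1r and Itgam were at 0 with rotenone. Endothelial markers summed to 2.08 to 2.97 and 5.91 CPM, and of the 2 tested Eng rose and Pecam1 did not pass. Skeletal muscle markers summed to 50.1 to 52.2 and 48.3 CPM, nearly all of it Des, with Myod1 and Myh4 at 0. Of the 2 tested, Acta1 rose from 0.222 to 6.65 CPM and Des fell from 50.9 to 41.7 CPM. The part of these shifts in the carrier results was not tested. In such bulk RNA, fewer fat cells and less RNA of a gene per fat cell cannot be told apart.

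The promoters of the carriers with the largest fall and the largest rise past the threshold, among those of at least 1 CPM in a group, are shown first. Both are RefSeq windows of 300 bases on GRCm38.p6, read on the gene's strand from 250 bases before an annotated start. Slc25a34 has 1 annotated start in that table (chr4:141623785-141624084, minus strand) and Slc25a25 has 3, of which the one shown (chr2:32424017-32424316, minus strand) is the only one with a cAMP response element. The end of that shown window was not found near the start of any GENCODE transcript of Slc25a25. Among the 3 windows only chr2:32431102-32431401 had such a match, and it holds no cAMP response element. Capitals mark the nuclear receptor half-site AGGTCA, the CCAAT box CCAAT and the cAMP response element TGACGTCA, each on either strand.

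Slc25a34: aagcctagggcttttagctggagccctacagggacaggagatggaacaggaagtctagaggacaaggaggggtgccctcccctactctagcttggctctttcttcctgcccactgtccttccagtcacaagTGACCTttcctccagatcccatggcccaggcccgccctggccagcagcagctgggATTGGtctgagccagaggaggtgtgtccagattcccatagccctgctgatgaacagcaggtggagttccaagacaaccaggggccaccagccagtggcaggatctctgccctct

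Slc25a25: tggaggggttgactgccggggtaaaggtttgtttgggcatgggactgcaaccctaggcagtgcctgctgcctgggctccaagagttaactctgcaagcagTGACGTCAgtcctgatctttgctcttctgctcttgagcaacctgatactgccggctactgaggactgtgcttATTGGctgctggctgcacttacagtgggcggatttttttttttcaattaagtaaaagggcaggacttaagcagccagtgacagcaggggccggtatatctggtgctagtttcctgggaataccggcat

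In the Slc25a34 window a half-site lay at positions -119 to -114 from the start and a CCAAT box at -64 to -60. In the Slc25a25 window the cAMP response element lay at -150 to -143. That element was found in 1.79% of the 32851 mouse promoters in the table, and among the 30 carriers with a promoter there it was in those of Slc25a25 and Slc25a36, which moved in opposite directions. The half-site was in 16.3% of all promoters and 10.3% of the 39 carrier windows, and the CCAAT box in 37.4% and 51.3%. The C/EBP-ATF element TGATGNAA was in 3.97% of all promoters and in none of the carriers'. The GC box GGGCGG was in 35.7% of all promoters and 87.2% of the carrier windows. The hypoxia response core ACGTG was in 19.6% and 28.2% of them, and the E-box CACGTG, which contains that core, in 7.15% and 17.9%. Some carriers had overlapping windows, so the same site could be counted more than once. By gene, the E-box was in 6 of the 30 carriers. The 32851 promoters were not limited to genes expressed in these cells, so the shares are not like for like. Motifs were searched on both strands and were chosen with the expression values known, and a match is no evidence that a factor binds.

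The summed level of the 40 carriers differed little between the groups, while its make-up changed. The 40 carriers together held 4441, 4465 and 4464 CPM in the 3 DMSO libraries and 4520.3 CPM in the rotenone library. With library size scaling these were 4505, 4573, 4571 and 4245 CPM, so that the direction of the total turned with the scaling. In CPM per kb of the longest coding transcript, the sums were 2054, 2085 and 2075 in DMSO and 2224 with rotenone, above every DMSO library. Of the 40, 11 rose and 14 fell past the threshold, and 15 did not pass. These were 27.5% and 35% of the carriers, against 27.6% and 28.5% of all genes, with 56.1% of genes called in either direction, so the share called was near that of all genes. The median log2 fold change was -0.04 for the carriers and -0.04 for all genes, and Slc25a18, which had 0 counts with rotenone, leaves the carriers' median the same when it is set to its bound. With scaling by library size only, both medians moved to -0.16, and the carriers split into 9 higher and 19 lower.

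Changes of at least 2-fold past the threshold were found for 3 carriers that rose and 6 that fell, against 5.53% and 11.3% of all genes. The rotenone library lay above every DMSO library for 18 carriers and below every one for 19, where 41.5% and 44.7% of all genes did so. With a coefficient of variation of 20% assumed, 3 carriers were higher and 6 lower, against 9.57% and 14.0% of all genes. Of the 25 carriers called in the quasi-likelihood test, 8 kept their call under that assumption: Slc25a25, Slc25a35 and Slc25a30, which rose, and Slc25a34, Slc25a42, Slc25a27, Slc25a47 and Slc25a53, which were called lower. The other 17 calls were lost, and Slc25a18, with 0 counts in the rotenone library, was called lower under that assumption but not in the quasi-likelihood test. All 40 passed the filter on low counts, Slc25a43 and Slc25a48 only through the rotenone library and Slc25a18 and Slc25a53 only through DMSO. Slc25a53 is counted among the 14 carriers lower, the 6 at least 2-fold lower and the 8 calls kept, although it had to be lower to enter as it did. With at least 1 CPM required in a group, neither Slc25a18 nor Slc25a53 was tested, and 11 carriers were higher and 13 lower of 35.

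**Figure D1:**
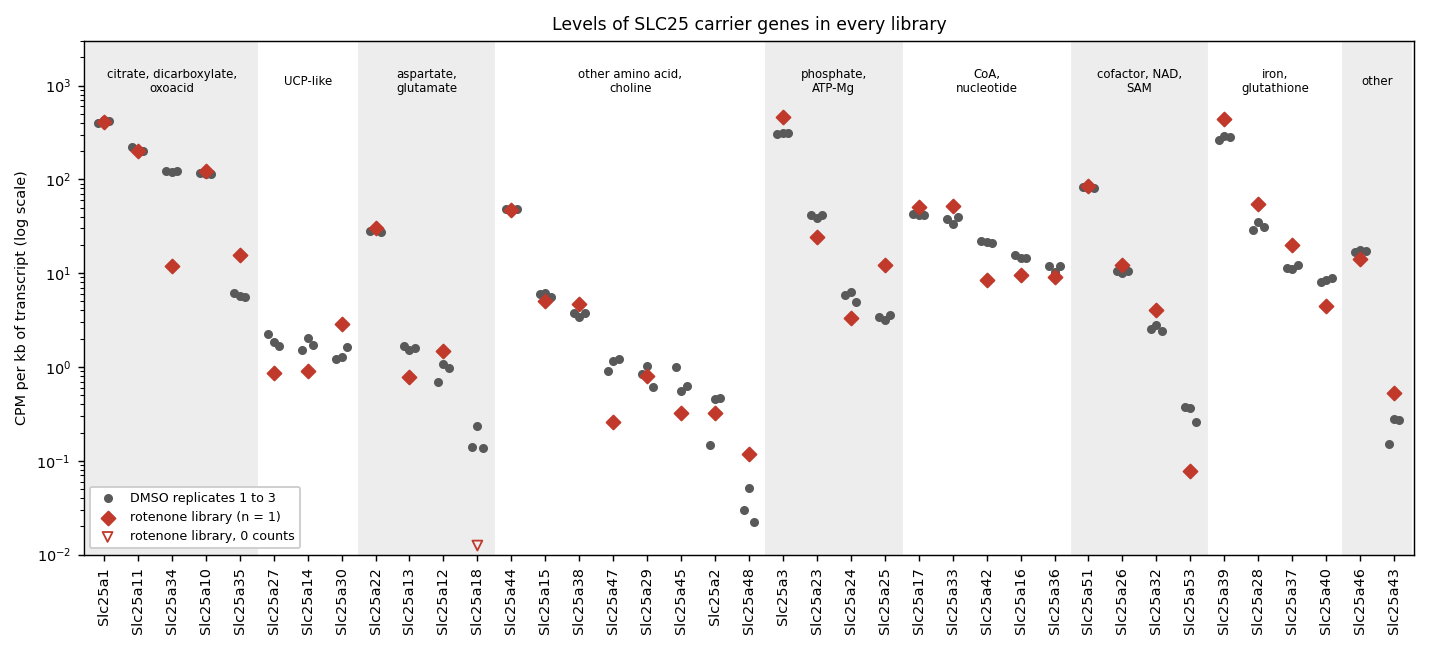
Levels of 39 carriers in CPM per kb of the longest coding transcript, on a log scale, grouped by substrate and ordered within a group by DMSO level. Grey points are the 3 DMSO libraries, red diamonds the rotenone library, and the open triangle marks Slc25a18, which had 0 counts there; the widest gap among carriers with counts in every library is that of Slc25a34, from 121 in DMSO to 12.0.

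Per length of transcript, 5 of the 40 carriers made up most of their summed message in DMSO. Slc25a1, Slc25a3 and Slc25a39 led, and the top 5 held 66.8%, 67.7% and 67.1% of the summed CPM per kb in the 3 DMSO libraries. With rotenone Slc25a3 led, followed by Slc25a39 and Slc25a1, and the top 5 held 73.2%. Slc25a34 moved from rank 6 to rank 19, Slc25a35 from 23 to 15 and Slc25a25 from 26 to 17. At the low end, Slc25a18, Slc25a2, Slc25a43 and Slc25a48 stayed under 1 CPM in every library, and none of these 4 passed the threshold. The change of a carrier had little relation to its DMSO level (Spearman's rho 0.07 across 40 genes) or to its transcript length (rho 0.05), as a description over genes that share the same 4 libraries.

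**Figure D2:**
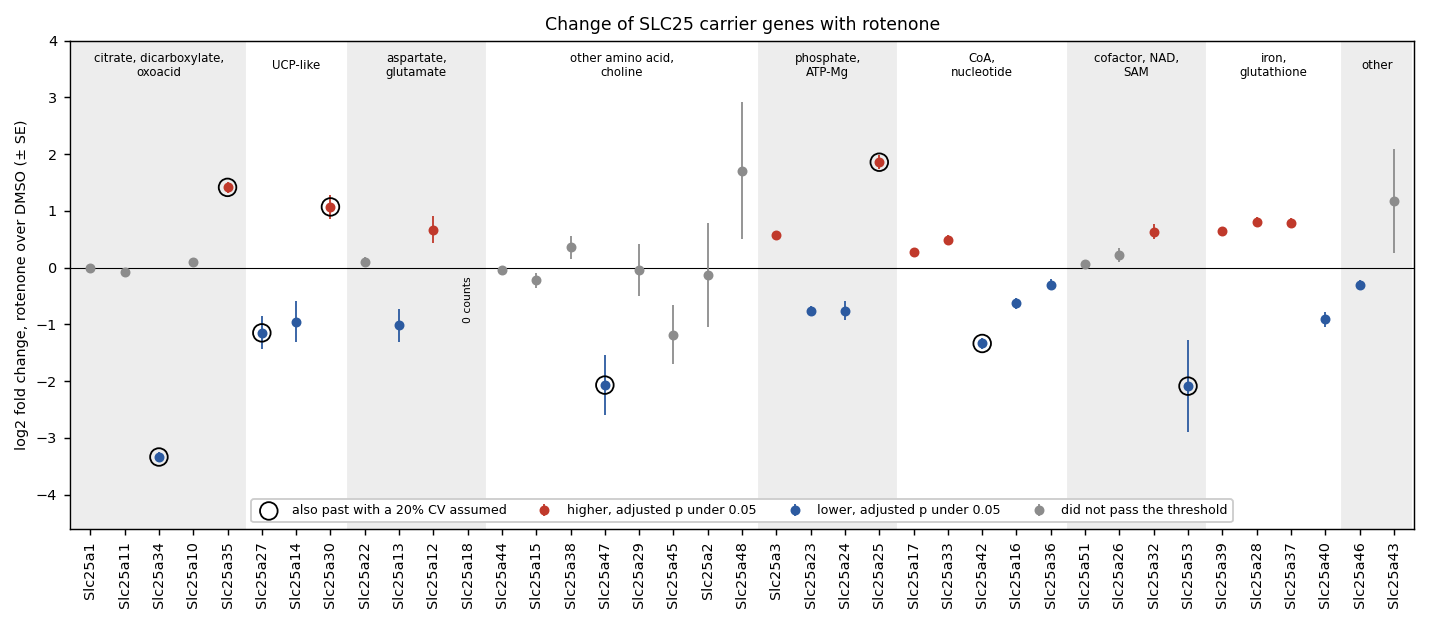
Log2 fold changes of rotenone over DMSO with their standard errors for 38 carriers, in the same order as the levels; red and blue mark genes past the threshold, and black rings those also past it with a 20% coefficient of variation assumed. Slc25a18 has no point because it had 0 counts with rotenone. Slc25a34 stands lowest at -3.34 and Slc25a25 highest at 1.86.

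Among the carriers of citrate, dicarboxylates and oxoacids, Slc25a1, Slc25a11 and Slc25a10 did not pass the threshold while a pair of orphan relatives went opposite ways. Slc25a34, a carrier of this branch whose substrate is not established, stood at 324, 320.3 and 329 CPM in DMSO replicates 1, 2 and 3 and at 32.1 CPM in the rotenone library. The rotenone value was far below every DMSO value, 10.1-fold under their mean. The log2 fold change was -3.34 ± 0.09, with an adjusted p of 3.29e-16 by edgeR's quasi-likelihood test with Benjamini-Hochberg adjustment. The gene lies on chromosome 4, 141618824 to 141623821 (GRCm38), and shares no annotated exon bases with another gene.

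Its close relative Slc25a35 went the other way. It stood at 22.3, 20.8 and 20.4 CPM in DMSO and 56.4 CPM with rotenone, above every DMSO library, a rise of 1.42 ± 0.10 on the log2 scale (edgeR, Benjamini-Hochberg adjusted p = 1.18e-09). Slc25a35 lies on chromosome 11, 68968131 to 68974365, and 31.3% of its annotated exon bases are shared with Rangrf on the opposite strand. Rangrf itself had 5.59 ± 0.79 CPM (SD, n = 3) under DMSO and 13.0 CPM with rotenone, a rise of 1.21 ± 0.20. Since no source says that strand was used in counting, reads from the bases that these genes share cannot be told apart. Within the pair, Slc25a34 made up 95.2%, 95.5% and 95.7% of the summed CPM per kb in DMSO and 43.7% with rotenone (95% Wilson interval 41.4 to 46.1%, counting error only).

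Slc25a1, which exports citrate for fatty acid and sterol synthesis, was the most abundant per length in DMSO of the carriers examined. It stood at 657, 708 and 697 CPM in DMSO and 685 CPM with rotenone, inside the DMSO range. Slc25a11, which exchanges oxoglutarate for malate in the malate-aspartate shuttle, had 342 to 377 CPM in DMSO and 339 CPM with rotenone. Slc25a10, which exchanges malate or succinate for phosphate, had 231 to 234 CPM and 249 CPM. None of these 3 passed the threshold, with log2 fold changes of -0.0042 ± 0.07, -0.07 ± 0.07 and 0.10 ± 0.06. Slc25a11 was called lower at -0.19 both with library size scaling and after a correction for transcript length and GC content.

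The carriers most like the uncoupling proteins changed in both directions from low levels. Slc25a30, also called KMCP1, stood at 4.36, 4.64 and 5.80 CPM in DMSO and 10.3 CPM with rotenone, a rise of 1.07 ± 0.22. Slc25a27, known as UCP4, stood at 6.55, 5.30 and 4.87 CPM in DMSO and 2.51 CPM with rotenone, and its log2 fold change was -1.15 ± 0.29. Slc25a14, known as UCP5, had 2.74, 3.67 and 3.07 CPM and then 1.63 CPM, with -0.96 ± 0.36. The DMSO and rotenone values did not overlap for any of these 3, which was so for most genes. Of all genes, 41.5% lay above every DMSO library with rotenone and 44.7% below every one. Slc25a30 went from 24.3%, 25.1% and 32.4% of the summed CPM per kb of the 3 genes to 62.0% (55.9 to 67.7%). The call for Slc25a14 was lost with DESeq2 and without DMSO replicate 2 (adjusted p = 0.096 and 0.087).

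Both aspartate-glutamate carriers, which export aspartate in the malate-aspartate shuttle under the control of calcium, were low, and they moved apart. Slc25a13, citrin, stood at 5.23, 4.78 and 4.98 CPM in DMSO and 2.46 CPM with rotenone. Slc25a12, aralar, stood at 4.42, 6.89 and 6.25 CPM and then 9.31 CPM. Slc25a13 fell by 1.02 ± 0.28 on the log2 scale and Slc25a12 rose by 0.67 ± 0.24, a call that ended with library size scaling (edgeR adjusted p = 0.057) and with DESeq2 (adjusted p = 0.061). The share of Slc25a12 in the pair's summed CPM per kb was 29.3%, 41.5% and 38.2% in DMSO and 65.0% with rotenone (57.7 to 71.7%). Of the carriers that take glutamate in with a proton, Slc25a22 had 78.0 to 82.6 CPM in DMSO and 86.1 CPM with rotenone and did not pass the threshold (0.10 ± 0.08), but was called higher after the length and GC correction (0.23, edgeR adjusted p = 0.011). Its relative Slc25a18 had 8, 13 and 7 counts in DMSO and 0 with rotenone, which is at least 2.22-fold lower with 3 counts taken as the upper limit of that library, and did not pass either (edgeR adjusted p = 0.054). It entered the test only through DMSO, the group where it is high, so a call for it under another setting supports no fall.

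Of the 8 other amino acid and choline carriers, 1 fell, or 12.5% against 28.5% of all genes. None rose, against 27.6% of all genes, and 7 did not pass. DESeq2 also called 1 lower and 0 higher, and 0 were higher at an unadjusted p under 0.05 in edgeR. Slc25a44, the carrier of branched-chain amino acids, was by far the highest of them per length. It stood at 173, 172 and 173 CPM in DMSO and 168 CPM with rotenone, with a log2 fold change of -0.04 ± 0.07, and was called lower with library size scaling (-0.16, edgeR adjusted p = 0.0496). Slc25a15, which exchanges ornithine for citrulline in the urea cycle, had 19.3 to 21.0 CPM and then 17.4 CPM, and was called lower with library size scaling alone of the alternatives (-0.34, edgeR adjusted p = 0.038). Slc25a38, which brings in glycine for heme synthesis, had 6.06 to 6.72 and 8.33 CPM. The member that fell was Slc25a47, a carrier known chiefly from liver. It had 51, 64 and 62 counts in DMSO, or 1.72 to 2.32 CPM, and 10 counts with rotenone, or 0.493 CPM, a log2 fold change of -2.07 ± 0.54. The others, Slc25a29, Slc25a45, Slc25a2 and the choline carrier Slc25a48, lay under 3 CPM in every library. Slc25a45 missed the threshold (edgeR adjusted p = 0.061) and was called lower with library size scaling, with no filter on low counts and without DMSO replicate 2 or 3 (adjusted p = 0.040, 0.041, 0.037 and 0.046).

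Among the phosphate carriers and the calcium-dependent ATP-Mg/phosphate carriers, 2 rose and 2 fell, where 27.6% of all genes rose and 28.5% fell. Slc25a3, which supplies the matrix phosphate used by ATP synthase, stood at 493, 505 and 505 CPM in DMSO and 743 CPM with rotenone. It rose by 0.57 ± 0.06 and was the most abundant per length in the rotenone library of the carriers examined. The ATP-Mg/phosphate carriers adjust the pool of adenine nucleotides in the matrix. Slc25a25 stood at 12.1, 11.3 and 12.6 CPM in DMSO and 43.5 CPM with rotenone, which was 3.63 times the DMSO mean. Its rise of 1.86 ± 0.12 was the largest of any carrier past the threshold (edgeR, Benjamini-Hochberg adjusted p = 2.80e-10).

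The relatives of Slc25a25 went down. Slc25a23 stood at 141, 131 and 140.4 CPM in DMSO and 81.3 CPM with rotenone, and Slc25a24 at 20.0, 21.4 and 16.9 CPM and then 11.5 CPM. Both had a log2 fold change of -0.76, with SEs of 0.08 and 0.16. Slc25a25 made up 6.70%, 6.62% and 7.11% of the 3 genes' summed CPM per kb in DMSO and 30.9% with rotenone (29.2 to 32.6%), while Slc25a23 went from between 80.5% and 83.1% to 60.7%. Slc25a25 shares 4.8% of its annotated exon bases with Naif1 on the opposite strand, which had a log2 fold change of -0.80 ± 0.24. The cAMP response element printed with the promoters lies before 1 of its 3 annotated starts.

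**Figure D3:**
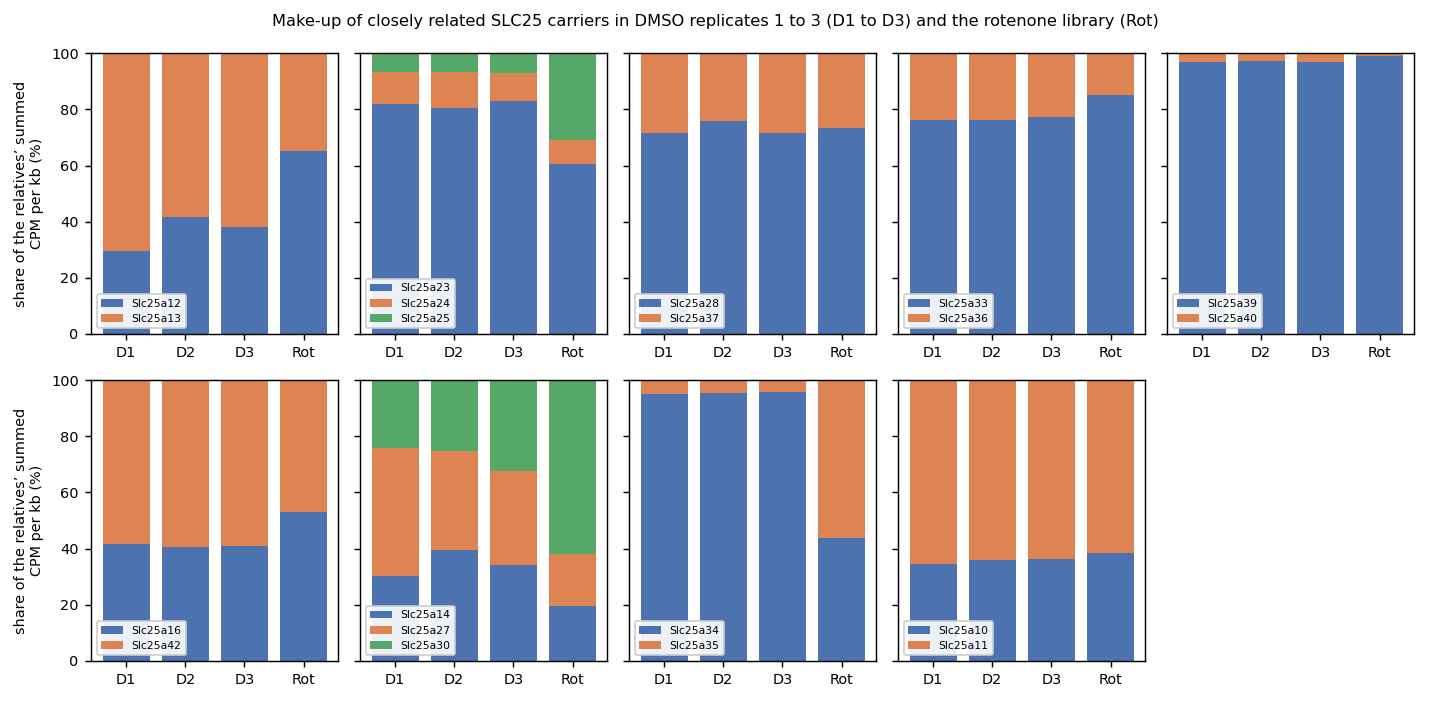
Make-up of 9 sets of close relatives, as the share of each gene in the set's summed CPM per kb, in DMSO replicates 1 to 3 and in the rotenone library. The bars of Slc25a34 and Slc25a35 change most, from 95.2 to 95.7% Slc25a34 in DMSO to 43.7% with rotenone, while Slc25a28 and Slc25a37 keep their proportions; Slc25a51 and Slc25a53 are left out because Slc25a51 made up at least 99.5% in every library.

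All 5 carriers of coenzyme A and nucleotides passed the threshold, 2 upward and 3 downward, where 56.1% of all genes were called. With a 20% coefficient of variation assumed, only Slc25a42 of the 5 kept its call. Slc25a42, which brings coenzyme A into mitochondria, stood at 70.0, 68.6 and 67.1 CPM in DMSO and 27.1 CPM with rotenone, a log2 fold change of -1.34 ± 0.10. Slc25a16, linked to the same substrate, stood at 49.0, 45.9 and 45.9 CPM and then 30.3 CPM, a fall of 0.63 ± 0.10. Both lay below every DMSO library, as did 44.7% of all genes. Slc25a42 went from the larger to the smaller part of the pair, from 58.4 to 59.5% down to 46.8% (44.0 to 49.7%) of the summed CPM per kb.

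Slc25a17, which sits in the peroxisomal membrane and carries coenzyme A and other nucleotide cofactors, had 71.1 to 73.0 CPM in DMSO and 87.2 CPM with rotenone, a rise of 0.28 ± 0.08 that ended with library size scaling (edgeR adjusted p = 0.084). The pyrimidine nucleotide carriers moved apart. Slc25a33 stood at 70.8, 62.9 and 75.4 CPM in DMSO and 97.9 CPM with rotenone, a rise of 0.49 ± 0.09. Slc25a36 stood at 61.6, 54.2 and 61.8 CPM and then 47.9 CPM, with a log2 fold change of -0.30 ± 0.10. The latter call ended after the length and GC correction (-0.09, edgeR adjusted p = 0.40).

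Among the carriers of cofactors, Slc25a32 rose and the abundant Slc25a51 did not pass. Slc25a51, the mitochondrial carrier of NAD, stood at 364, 357 and 361 CPM and then 378 CPM and did not pass the threshold (0.07 ± 0.06), but was called higher after the length and GC correction (0.21, edgeR adjusted p = 0.0062). Slc25a32, a carrier of folates and FAD, stood at 15.2, 16.4 and 14.4 CPM in DMSO and 23.8 CPM with rotenone and rose by 0.64 ± 0.14.

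Slc25a26, the carrier of S-adenosylmethionine, had 19.3 to 20.4 CPM in DMSO and 23.3 CPM with rotenone and did not pass. Slc25a53, an orphan relative of the NAD carrier, had 35, 34 and 22 counts in DMSO and 5 with rotenone (log2 fold change -2.09 ± 0.81). It passed the filter on low counts only through DMSO, the group where it is high, so its place among the carriers called lower supports no fall. The call ended with DESeq2 and without DMSO replicate 1 or 2 (adjusted p = 0.062, 0.052 and 0.058).

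Iron and glutathione carriers were mostly higher, with 3 that rose and 1 that fell. These were 75% and 25% of the 4, against 27.6% and 28.5% of all genes. None of the 4 kept its call with a 20% coefficient of variation assumed. The mitoferrins, which bring in iron for heme and iron-sulfur clusters, rose side by side. Slc25a28, mitoferrin 2, stood at 43.9, 53.3 and 47.2 CPM in DMSO and 84.1 CPM with rotenone, and Slc25a37, mitoferrin 1, at 47.4, 45.7 and 51.3 CPM and then 83.1 CPM. The log2 fold changes were 0.81 ± 0.10 and 0.79 ± 0.09, and Slc25a28 made up 71.5 to 76.0% of the pair per length in DMSO and 73.3% with rotenone. With a 20% coefficient of variation assumed, both missed the threshold (edgeR adjusted p = 0.052 and 0.058).

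The glutathione carriers moved apart. Slc25a39, the main one, stood at 444, 489.9 and 476 CPM in DMSO and 733 CPM with rotenone, a rise of 0.64 ± 0.07. Slc25a40, its minor relative, stood at 22.7, 23.4 and 24.7 CPM and then 12.5 CPM, a fall of 0.91 ± 0.14. Slc25a40 thereby went from 2.81 to 3.04% of the pair's summed CPM per kb to 1.02% (0.905 to 1.16%). An annotated processed pseudogene, which the files do not list, matches 724 nt of its transcript at 96.3% identity. Other unlisted genes match 544 nt of Slc25a36 at 99.6% and 382 nt of Slc25a37 at 100%. Slc25a33 shares 14.9% of its annotated exon bases with an unlisted gene on the opposite strand. Outside these groups, Slc25a46, an outer membrane protein that acts in mitochondrial shape, had 74.3 to 77.3 CPM in DMSO and 61.1 CPM with rotenone and fell by 0.31 ± 0.08, and the orphan Slc25a43 stayed under 1 CPM.

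Genes that bring the carriers to the inner membrane were mostly higher. Of 13 genes of the import route, 10 rose, or 76.9% against 27.6% of all genes, and 3 did not pass. None fell, and 0 were lower at an unadjusted p under 0.05 in edgeR or at an adjusted p under 0.05 in DESeq2, which called 9 higher. The median log2 fold change was 0.36, against -0.04 for all genes; it was 0.37 after the length and GC correction and 0.24 with library size scaling. The largest rises were those of Timm10, Timm13 and Timm9, small chaperones of the intermembrane space, which escort carriers between the outer and inner membranes. Timm8b, Timm10b and Timm8a1 of the same class rose less, by 0.55 ± 0.07, 0.35 ± 0.09 and 0.29 ± 0.11 on the log2 scale. Timm10 had 30.7 ± 2.29 CPM (SD, n = 3) under DMSO and 71.4 CPM with rotenone, and Timm13 at 108 ± 9.80 and 229 CPM. Timm10, Timm13 and Timm9 had log2 fold changes of 1.22 ± 0.10, 1.09 ± 0.08 and 0.94 ± 0.10. Only these 3 genes of the list passed also with a 20% coefficient of variation assumed, where 9.57% of all genes were higher. The outer membrane receptor subunit Tomm22 rose by 0.57 ± 0.07 and the insertion channel gene Timm22 by 0.36 ± 0.08, and Tomm70a, a receptor for carriers, had 0.10 ± 0.08 and did not pass.

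Of 19 transporters of the inner membrane outside the family, 8 rose, 5 fell and 6 did not pass. These were 42.1% and 26.3% of the list, against 27.6% and 28.5% of all genes, and with a 20% coefficient of variation assumed 2 were higher and 1 lower. The median log2 fold change was 0.02; it was -0.10 with library size scaling and 0.18 after the length and GC correction. Mpc2, a subunit of the pyruvate carrier, had 195 ± 6.76 CPM (SD, n = 3) under DMSO and 359.7 CPM with rotenone and rose by 0.88 ± 0.06. Smdt1, a subunit of the calcium uniporter complex, rose by 0.87 ± 0.07. Sfxn5, a sideroflexin, fell by 1.06 ± 0.16, and its relative Sfxn4 was also called lower, with a log2 fold change of -0.81 ± 0.21. Of the other sideroflexins, Sfxn3 rose by 0.61 ± 0.12, and Sfxn1 and Sfxn2 did not pass.

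The enzymes of the malate-aspartate and glycerol phosphate shuttles, which pass cytosolic reducing equivalents to mitochondria, mostly rose. Of 6 enzymes 5 rose, or 83.3% against 27.6% of all genes, with log2 fold changes between 0.36 for Mdh1 and 0.61 for Gpd2, and Gpd1, the cytosolic glycerol phosphate dehydrogenase, fell by 0.46 ± 0.07. None of the 6 passed with a 20% coefficient of variation assumed. Of the SLC25-fold proteins that carry other names, the outer membrane protein Mtch2 rose by 0.65 ± 0.06, and Mtch1 had -0.02 ± 0.08 and did not pass. These lists, like the carriers, were drawn up with earlier results of the data known, so their counts are descriptions.

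**Figure D4:**
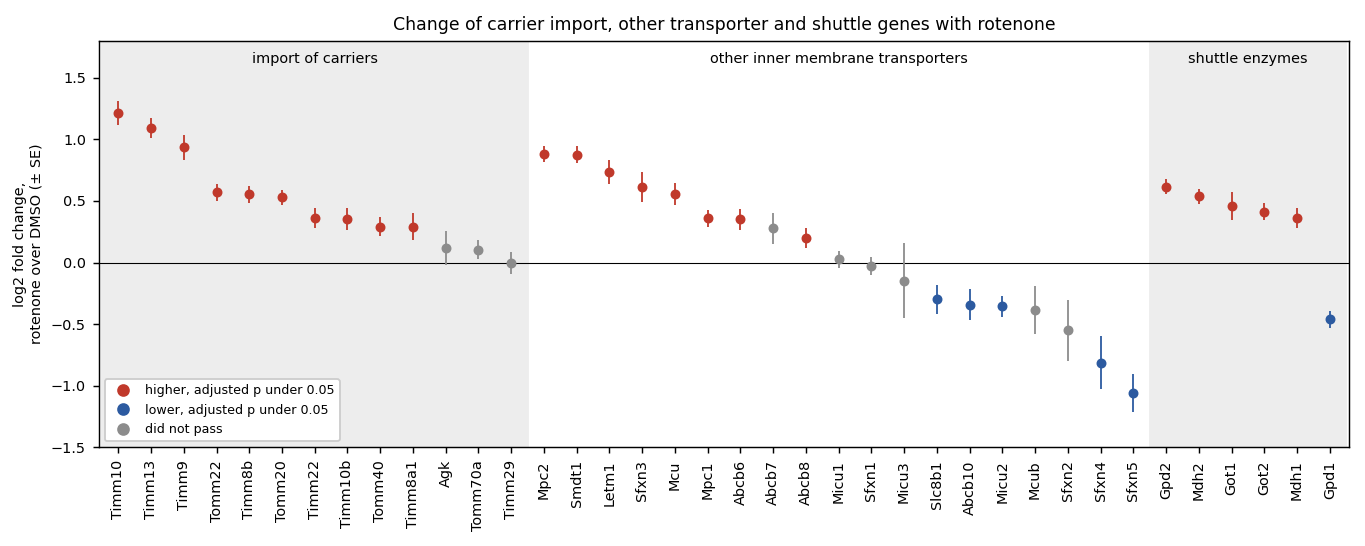
Log2 fold changes of rotenone over DMSO with their standard errors for 38 neighbouring genes in 3 lists, ordered by size within a list; red and blue mark genes past the threshold and grey those that did not pass. In the import list 10 of 13 points are red and none is blue, with Timm10 highest at 1.22.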

How the data were processed

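The authors deposited read counts per gene symbol, 1 file per library, in RNA-seq of total RNA; TopHat2 and mm10 are named per the submitters' processing notes. Not given in the sources used here are the counting program, its annotation, its use of strand and its handling of reads with several matches. Identical files were entered once. Counts were fitted with edgeR 4.0.16 in R 4.3.3 (TMM scaling, filterByExpr defaults, robust quasi-likelihood F test, 2 residual degrees of freedom) over 14709 genes with Benjamini-Hochberg adjustment, after the code was tested on simulated data. SEs of log2 fold changes were derived from F, as the change over its root. Levels between genes were compared per kb of the longest coding GENCODE transcript on GRCm38. Alternatives were 3 other scalings, 2 other filters, DESeq2 1.42.0, edgeR's likelihood ratio test with a coefficient of variation of 20% assumed, offsets over 8 bins of length by 8 of GC content for 14216 genes, and each DMSO library left out.

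Members, lists and tests were chosen with earlier results of these data known. Values in every library were given for members past the threshold with a log2 fold change of at least 0.58 in size and 1 CPM in a group, for the most abundant member of each substrate group, for close relatives and for members at the edge of the count minimum; of each neighbouring list, up to 4 genes with the largest changes. Other members, the overlapping genes Rangrf and Naif1, and further genes of the neighbouring lists were named after their values were seen. The latter were Timm22, Tomm70a, Timm8b, Timm10b, Timm8a1, Sfxn1, Sfxn2 and Sfxn3. A carrier that counts among the members is not reported here by itself.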

Additional observations from a re-analysis of the deposited data

How the results depend on the processing

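With a coefficient of variation of 20% assumed, the carriers called fell to 3 higher and 6 lower, and all genes called to 1408 higher and 2063 lower from 4054 and 4197; the other alternatives kept these 4 counts within 1.5 times. Leaving out 1 DMSO library gave 11 carriers higher each time and 13 to 15 lower. Library size scaling moved the share of calls that were higher from 44% to 32.1% among carriers and from 49.1% to 38.6% among all genes. The carriers' median log2 fold change turned to 0.04 without DMSO replicate 2. No call reversed. The sign turned only for carriers that did not pass: Slc25a1 (0.016 with median-ratio factors and with DESeq2, and between -0.029 and 0.019, with 0.0062 among them, with 1 DMSO library left out), Slc25a10 (-0.020 with library size scaling, -0.039 with the length and GC correction), Slc25a22 and Slc25a51 (-0.016 and -0.053 with library size scaling), Slc25a2 (-0.49 to 0.11, with 0.099 among them, with 1 DMSO library left out) and Slc25a29 (-0.21 to 0.14 likewise). The cause was not tested. Carriers under about 1 CPM have too few counts for a firm value. No paired analysis was possible because the 3 rotenone files hold identical counts, so the replicate numbers pair no libraries and no replicate block could be fitted.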
